A study of Mus musculus with 20 samples.

Results

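The genes of fatty acid oxidation and ketogenesis were followed across a mouse model of colorectal liver metastasis (CRLM). The set held 34 of the 54532 genes of the annotation and was taken by gene name, each name being present once in the deposited count table of the tissue libraries, and by the same gene identifiers in that of the sorted cells. By where their proteins are known to act, 18 members were taken as mitochondrial, 10 as peroxisomal and 4 as acting in both compartments, and the remaining 2 members, Fabp1 and Acsl1, carry and activate fatty acids before they enter either one. All animals were wild-type C57BL/6 mice. The control liver (con, day 0, n = 2) came from animals given normal saline, and every other group from animals injected with Mc38 cells, a colon adenocarcinoma line derived from the same strain, through the spleen. Tumour-centred pieces were graded as low-content tumor at day 9 (Lt, n = 2), medium-content tumor at day 9 (Mt3, n = 2) and at day 11 (Mt2, n = 2, and Mt1, n = 2), and high-content tumor at day 12 (Ht), and 1 library came from tumor-free liver remote from the tumor at day 12 (L-con). Of the 3 Ht libraries, those numbered 1 and 3 were described as made from identical material, so their counts were added and Ht had n = 2. F4/80+ cells (F4/80+TAM, n = 3) and CD11b+ cells (CD11b+TAM, n = 3) were taken with microbeads from medium-content tumors at day 11, the stage of Mt2.

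Fatty acids are broken down by β-oxidation, a cycle that shortens the chain step by step and that runs in mitochondria for long and medium chains and in peroxisomes for very long and branched chains. The carnitine system (Cpt1a, Slc25a20, Cpt2) carries long chains into the mitochondrion, acyl-CoA dehydrogenases take the first step there and hand their electrons to the flavoprotein chain (Etfa, Etfb, Etfdh), and peroxisomes use oxidases, their own bifunctional enzymes and their own thiolases. The hepatocyte is known for high capacity in both compartments and for ketogenesis, the making of ketone bodies from the acetyl-CoA that oxidation yields, and Ppara is the best known regulator of these genes in liver.

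Total counts ran from 16032085 to 18246623 for the tissue libraries and from 17785496 to 20548370 for the sorted cells. A piece of tumor-bearing liver is a mixture. The summed level of 13 hepatocyte markers was 184651 to 214799 CPM (counts scaled to a common library size after TMM normalisation) in con. It was 106739 to 194008 CPM in Lt, 31664 to 116497 in Mt2, 29145 to 107130.0 in Mt1 and 4239.6 to 5987 in Ht. From con to Lt 8 of the 13 had a log2 fold change below 0 and 5 above it, with a median of -0.13. From con to Ht all 13 lay below 0, with a median of -4.57. Alb (albumin), the most abundant of them, was used below as the hepatocyte reference. Alb fell further than that median from con to Ht, so ratios to Alb stand higher there than ratios to a marker of smaller fall. Markers of fibroblasts (summed level 299 to 420.5 CPM in con and 6507 to 7348 in Ht), of proliferation (10.8 to 18.6 and 1149 to 1167) and of macrophages (656 to 976 and 3360.2 to 3458) had higher sums in Ht, as had those of neutrophils (3.62 to 5.22 and 184 to 201), and markers of endothelial cells had a lower sum (628 to 802 and 272 to 291). In such samples, fewer hepatocytes and less RNA of a gene per hepatocyte cannot be told apart. The tissue libraries held 0 to 3 counts of Xist and 558 to 1421 of Ddx3y, the pattern of male animals. The sorted cells held 5547 to 21805 of Xist and 0 of Ddx3y, the pattern of female animals. The study's methods name female mice, and the tissue libraries depart from that statement.

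The 4 promoters below were chosen because they stood in front of the members that the results turn on: both peroxisomal thiolase genes, Acaa1a and Acaa1b, whose counts parted from each other, Fabp1, the member with the steepest fall, and Ehhadh, a steeply falling peroxisomal gene of another enzyme class. RefSeq promoters (GRCm38.p6) were available for 30 of the 34 members. Each sequence is the stretch upstream of the RefSeq start, 5′ to 3′ on the gene's strand, that no annotated exon covers, and capitals mark a GC box (GGGCGG) or a direct repeat (2 copies of AGGNCA with 1 base between them), the layout bound by Ppara with its partner Rxra and by Hnf4a. Acaa1a is shown from chr9:119341160-119341293 on the plus strand, Acaa1b from chr9:119157094-119157343 on the minus strand, Fabp1 from chr6:71199629-71199826 on the plus strand and Ehhadh from chr16:21787835-21788084 on the minus strand. The Acaa1a stretch precedes the RefSeq start and lies inside the longer gene model of the count tables, between its exons.
Acaa1a: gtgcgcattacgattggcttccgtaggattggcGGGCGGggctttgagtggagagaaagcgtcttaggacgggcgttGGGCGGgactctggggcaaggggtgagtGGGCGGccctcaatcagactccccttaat
Acaa1b: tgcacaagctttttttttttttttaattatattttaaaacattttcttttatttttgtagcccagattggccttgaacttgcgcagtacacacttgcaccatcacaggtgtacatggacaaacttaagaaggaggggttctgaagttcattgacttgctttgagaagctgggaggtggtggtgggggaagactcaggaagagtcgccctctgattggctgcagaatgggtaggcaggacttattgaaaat
Fabp1: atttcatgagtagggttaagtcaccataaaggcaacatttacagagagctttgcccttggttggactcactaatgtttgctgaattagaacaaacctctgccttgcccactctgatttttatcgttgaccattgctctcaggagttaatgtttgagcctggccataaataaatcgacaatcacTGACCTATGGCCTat
Ehhadh: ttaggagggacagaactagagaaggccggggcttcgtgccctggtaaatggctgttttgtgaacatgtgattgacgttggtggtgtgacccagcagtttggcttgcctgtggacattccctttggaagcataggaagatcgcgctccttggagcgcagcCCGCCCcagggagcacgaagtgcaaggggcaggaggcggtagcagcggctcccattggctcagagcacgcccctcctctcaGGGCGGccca

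The Acaa1a stretch held GGGCGG 3 times and that of Ehhadh 2 times, the 250 bases of Acaa1b held it on neither strand, and the Fabp1 stretch held the direct repeat on the minus strand, from base -67 to base -55 counted from the start. The 250 bases upstream of the start were searched on both strands. A member was counted when any promoter listed for it held the letters, while the share of all promoters was taken over single promoters. GGGCGG stood in 17 of the 30 members with a promoter (56.7%) and in 32.7% of all 32851 promoters. The direct repeat stood in 1 of the 30, Fabp1, and in 0.338% of all promoters, and CCAAT in 14 of the 30 (46.7%) and in 33.8%. By class, GGGCGG stood before 9 of 16 mitochondrial, 4 of 9 peroxisomal and 3 of 3 members of both compartments. A match to these letters is a description and not a binding site. Hadha and Hadhb, which encode the α and β subunits of the mitochondrial trifunctional protein, lie head to head on chromosome 5 with their RefSeq starts 73 bases apart.

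In the control liver the set spanned 3 orders of magnitude. Levels between genes were compared as fragments per kilobase of the gene model on the CPM scale (FPKM). Fabp1, the liver fatty acid carrier, stood highest at 4501 ± 2173 FPKM (SD, n = 2), with 2965 and 6037 in the 2 libraries. Among the peroxisomal members Phyh, which starts the breakdown of phytanic acid, led at 1237 ± 157 FPKM, followed by Acaa1b, a thiolase, at 619 ± 256 and Crot, which moves shortened chains onto carnitine, at 199 ± 30.3. Crot and Hsd17b4, at 191 ± 31.7 FPKM, differed by less than the spread between the libraries.

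Among the mitochondrial members Acaa2, the thiolase that ends each cycle, led at 832 ± 118 FPKM (SD, n = 2). Etfa, the α subunit of the electron transfer flavoprotein, followed at 273 ± 3.57 and Eci1, an enoyl-CoA isomerase, at 158 ± 36.9, and Eci1 lay within its spread of Acadl at 138 ± 2.53 and Cpt1a at 133 ± 4.35. Acot2, a mitochondrial acyl-CoA thioesterase, was the lowest member of the set at 2.24 ± 0.135 FPKM. Of the members of both compartments Ech1, a dienoyl-CoA isomerase, stood at 159 ± 29.5 and Crat, carnitine acetyltransferase, at 13.6 ± 4.95. Acsl1, the main long-chain acyl-CoA synthetase of liver, stood at 130.2 ± 8.31.

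**Figure D1:**
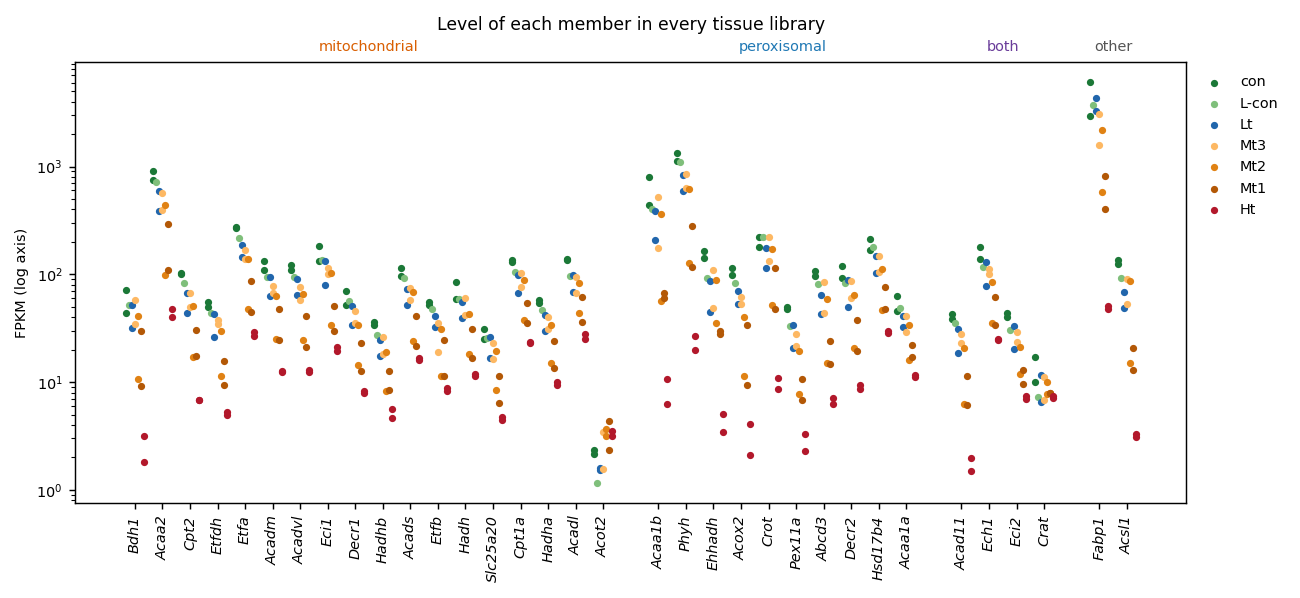
Level of each of the 34 members in every tissue sample (FPKM, log axis), 1 point per sample and 1 colour per group, with members grouped by compartment and ordered within it by their change from con to Ht. Except for Acot2 the 2 Ht points lie below both con points, by the least in Crat. The Mt points spread widely, and in Crat 1 of them lies below both Ht points.

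The tumor-free liver at day 12 (L-con) was 1 library and was not tested. Relative to con its members were at a median log2 difference of -0.29, against 0.01 for all genes tested, and 25 of the 34 lay below both con libraries, as did 5522 of the 17182 genes. Ehhadh, the peroxisomal bifunctional enzyme, was at 276 CPM there and at 486 and 425 CPM in con. Crot was the only member with a log2 difference above 0, at 1199 CPM against 970.4 and 1204. The Alb level was 93589 CPM in L-con, below 129444 and 108749 CPM in con.

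The first step, con to Lt, asked whether the pathway moved when tumor content was still low. A gene was called when its Benjamini-Hochberg adjusted p over all genes was at most 0.05 and its log2 fold change at least 1 in size (edgeR quasi-likelihood F test on trimmed mean of M-values, TMM, normalised counts). No member was called in either direction, while 0.256% of the 17187 genes tested were called lower and 12.4% higher. At an unadjusted p under 0.05 there were 1 member and 4917 of all genes. All 34 members had a log2 fold change below 0, with a median of -0.64 against 0.10 for all genes. The lowest were Ehhadh at -1.21 ± 0.52 (SE, adjusted p = 0.161), Acsl1 at -1.16 ± 0.66 (adjusted p = 0.281) and Acaa1b at -1.06 ± 0.80 (adjusted p = 0.405). With DESeq2 the count called lower was also 0, without the filter on low counts it was 3, and with con and Lt fitted alone it was 2. The members at an unadjusted p under 0.05 moved more, to 5, 26 and 23 in these fits, with 5447, 6028 and 5260 of all genes.

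The 2 Lt libraries were unequal. Ehhadh stood at 260.2 and 133 CPM in Lt, Acsl1 at 715 and 508, and Alb at 98772 and 49744. Without Lt replicate 1 the median of the members was -1.02 and without Lt replicate 2 it was -0.41, with no member called under either. With total counts in place of TMM it was -0.37, against 0.40 for all genes.

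From Lt to the mean of the 3 Mt groups no member was called either, and no gene of the 17187 was (0% called lower and 0% higher by edgeR, with 3282 genes and 4 members at an unadjusted p under 0.05). DESeq2 called 110 genes lower and 132 higher, with 1 member among them. The median of the members was -0.62 (-0.25 without Lt replicate 1, -0.93 without Lt replicate 2 and -0.94 without Mt2 replicate 1), with Fabp1 lowest at -1.61 ± 0.49 (adjusted p = 0.214). Acot2 alone lay above 0, at 0.97 ± 0.34 (adjusted p = 0.217). Without Mt2 replicate 1, 8 members were called lower, with 607 of 17179 genes lower and 171 higher, so that library decided this count.

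The 6 Mt libraries did not lie together. Alb ranged over 6.98-fold among them, with 55047 CPM in Mt2 replicate 1, 58330.1 in Mt1 replicate 1, and 11692 and 13304 in their partners numbered 2. Members followed: Acaa2 stood at 668 and 148 CPM in the Mt2 libraries and at 444 and 165 in those of Mt1. Over the 6 libraries the SD of log2 CPM had a median of 0.801 over the members. The SD of the log2 ratio of member to Alb counts had a median of 0.598 and was the smaller of the 2 in 27 of the 34. These spreads were not computed for genes outside the set, so no share over all genes stands beside that count. Acaa1b was less regular, at 119 CPM in Mt1 replicate 1, where Alb was high, and at 131 CPM in Mt1 replicate 2, where it was low.

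From Mt to Ht the pathway fell as a whole. The test called 31 of the 34 members lower and none higher, against 13.4% of all genes called lower (2306) and 1.5% called higher (257). All 10 peroxisomal members fell, with a class median of -2.88, and 16 of the 18 mitochondrial members fell, with a class median of -1.61, against 0.00 for all genes. The steepest were Fabp1 at -4.67 ± 0.71 (adjusted p = 0.00861), Acaa1b at -4.30 ± 0.86 (adjusted p = 0.012) and Phyh at -4.04 ± 0.71 (adjusted p = 0.00912). Not called were Etfb at -1.34 ± 0.43 (adjusted p = 0.052), Crat at -0.24 ± 0.28 (adjusted p = 0.536) and Acot2 at 0.14 ± 0.31 (adjusted p = 0.756). With 1 Ht sample left, the spread is taken from the other groups and the lone sample is assumed to vary like them. Without Ht replicate 1 or without Ht replicate 2, no member and no gene was called, though 31 and 31 members had an unadjusted p under 0.05 and the medians of the members, -1.83 with both samples, were -1.78 and -1.88. Without Mt3 replicate 1 fewer members and fewer of all genes were called lower, and the medians were -1.77 for the members and 0.01 for all genes. With total counts in place of TMM 20 members were called lower, with 1773 of all genes called lower and 2585 higher.

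The comparison of con with Ht set the ends of the series against each other. The test called 32 of the 34 members lower and none higher, against 24.1% of all genes lower (4139) and 25.8% higher (4437), and the count stayed at 32 or 33 under every setting tried. The median of the members was -3.23 and that of all genes 0.09. With total counts in place of TMM the median of all genes was 1.27 and that of the members -2.05, 32 members were called lower, and of all genes 2250 were called lower and 8819 higher.

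Members of both compartments fell, the peroxisomal ones further by their median. All 10 peroxisomal members were called lower, with a median of -4.24 and a range from -6.19 to -2.27. Of the mitochondrial members 17 of 18 were called lower, with a median of -2.83 and a range from -4.55 to 0.59. The members of both compartments had a median of -2.60, with 3 of 4 called lower. The medians of the mitochondrial and peroxisomal members differed by 1.40 on the log2 scale, and that difference ranged from 1.25 to 1.55 when 1 con or Ht sample was left out. The ranges of the classes overlapped, and the classes were compared as a description, with no test. For the further genes outside the set, described below, the medians lay closer together, at -3.01 for 20 peroxisomal and -2.62 for 14 mitochondrial genes.

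Fabp1 fell furthest of the 34. Fabp1 stood at 1639 and 3339 CPM in con, 2413 and 1797 CPM in Lt, between 225 and 1704 CPM in the 6 Mt libraries (median 665), and 28.2 and 26.3 CPM in Ht. Both Ht values lay far below all others, and the log2 fold change was -6.51 ± 0.82 (SE, adjusted p = 0.000246). Acsl1 stood at 1303 and 1427 CPM in con, 715 and 508 CPM in Lt, between 137 and 951 CPM in the 6 Mt libraries (median 387), and 32.4 and 34.8 CPM in Ht. Its log2 fold change was -5.34 ± 0.79 (adjusted p = 0.000468), so that both genes of uptake and activation in the set stood among its 4 steepest.

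**Figure D2:**
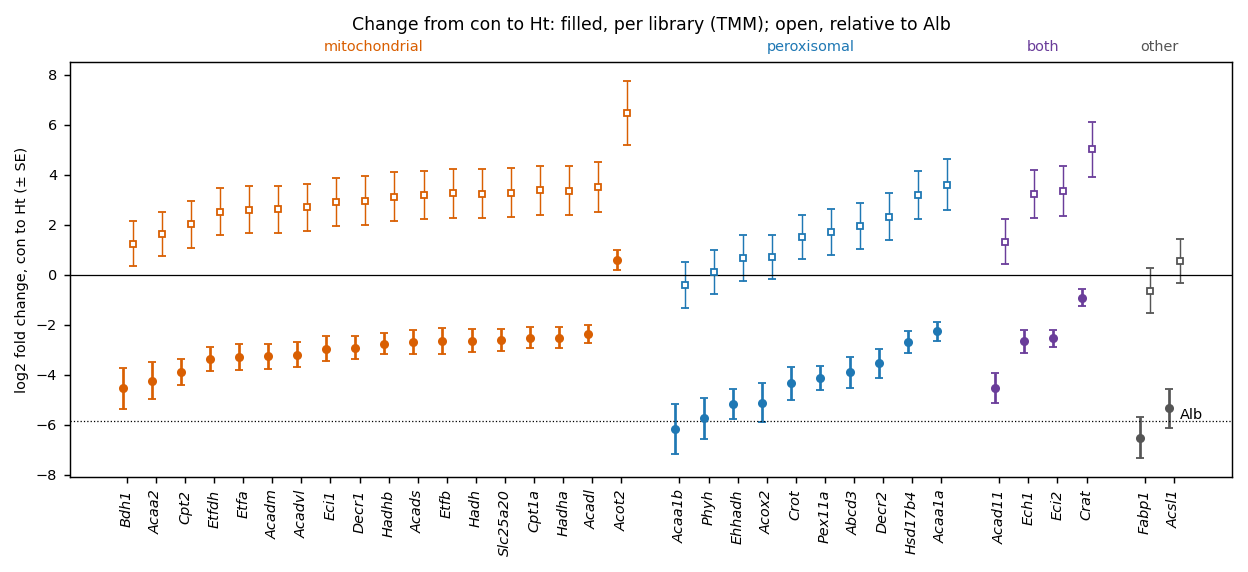
Log2 fold change from con to Ht with its standard error for each of the 34 members, as TMM-normalised change (filled) and relative to Alb (open), with the change of Alb as a dotted line at -5.85. Filled points of peroxisomal members reach from -6.19 to -2.27, most mitochondrial ones lie between -2 and -4, and Acot2 and Crat stand apart.

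Of the peroxisomal members Acaa1b fell furthest. Acaa1b stood at 859 and 1569.5 CPM in con, 754 and 409.5 CPM in Lt, between 109.9 and 1030.4 CPM in the 6 Mt libraries (median 239), and 12.4 and 21.0 CPM in Ht. The Ht values lay far below all others and the fold change was -6.19 ± 1.00 (adjusted p = 0.000679). Phyh stood at 2132 and 2553 CPM in con, 1593 and 1135 CPM in Lt, between 221 and 1598 CPM in the 6 Mt libraries (median 854), and 37.2 and 50.4 CPM in Ht, a log2 fold change of -5.74 ± 0.82 (adjusted p = 0.000405). Ehhadh and Acox2, the oxidase of bile acid intermediates and branched chains, came next. Ehhadh went from 486 and 425 CPM in con to 10.2 and 15.1 in Ht, a log2 fold change of -5.18 ± 0.61 (adjusted p = 0.000196). Acox2 went from 425 and 366 CPM in con to 7.75 and 15.1 in Ht, a log2 fold change of -5.12 ± 0.78 (adjusted p = 0.000531).

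At the other end of the peroxisomal class stood Acaa1a and Hsd17b4, the second bifunctional enzyme, which handles branched and very long chains. Acaa1a stood at 199.9 and 279.9 CPM in con, 179.8 and 144 CPM in Lt, between 70.6 and 181 CPM in the 6 Mt libraries (median 114), and 48.9 and 50.9 CPM in Ht. The groups con and Ht did not overlap, and its log2 fold change of -2.27 ± 0.36 (adjusted p = 0.000676) was the smallest of the class. Hsd17b4 stood at 572 and 725 CPM in con, 498 and 353 CPM in Lt, between 157 and 501 CPM in the 6 Mt libraries (median 309), and 97.9 and 102 CPM in Ht, a log2 fold change of -2.69 ± 0.45 (adjusted p = 0.000822). The other 4 lay between these and the steep members, and all were called lower. Crot went from 970.4 and 1204 CPM in con to 47.3 and 59.6 in Ht (log2 fold change -4.35 ± 0.67). Pex11a, which acts in the division of peroxisomes, went from 151 and 158 CPM in con to 7.25 and 10.4 in Ht (-4.13 ± 0.48). Abcd3, which brings branched chains and bile acid intermediates into the peroxisome, went from 631 and 704 CPM in con to 41.6 and 47.3 in Ht (-3.91 ± 0.64), and Decr2, a dienoyl-CoA reductase, from 210.2 and 271 CPM in con to 19.8 and 21.4 in Ht (-3.55 ± 0.57).

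Of the mitochondrial members Bdh1 and Acaa2 fell furthest. Bdh1 makes the ketone body hydroxybutyrate from acetoacetate. Bdh1 stood at 169 and 281 CPM in con, 201 and 125 CPM in Lt, between 35.9 and 226 CPM in the 6 Mt libraries (median 125), and 7.01 and 12.3 CPM in Ht. Its log2 fold change was -4.55 ± 0.81 (adjusted p = 0.00109). Acaa2 stood at 1133 and 1387 CPM in con, 904 and 587 CPM in Lt, between 148 and 869 CPM in the 6 Mt libraries (median 518), and 61.2 and 72.2 CPM in Ht, a log2 fold change of -4.24 ± 0.75 (adjusted p = 0.00109).

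The carnitine shuttle fell at all 3 of its steps. Cpt2 went from 246 and 240.0 CPM in con to 16.3 and 16.5 in Ht and Slc25a20 from 122 and 152 CPM in con to 23.1 and 21.6 in Ht. Cpt2, the inner membrane transferase, fell by 3.89 ± 0.52 on the log2 scale (adjusted p = 0.000315), Slc25a20, the carrier between both membranes' enzymes, by 2.62 ± 0.44 (adjusted p = 0.000823) and Cpt1a, the outer membrane transferase that sets the rate of entry, by 2.52 ± 0.42 (adjusted p = 0.000837). Cpt1a stood at 586 and 559.6 CPM in con, 419.7 and 286 CPM in Lt, between 152 and 445 CPM in the 6 Mt libraries (median 281), and 101 and 98.8 CPM in Ht. Both Ht values were the lowest of the gene. The difference between these genes was not tested.

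The acyl-CoA dehydrogenases fell in the order of Acadm (medium chain, -3.27 ± 0.48), Acadvl (very long chain, -3.19 ± 0.49), Acads (short chain, -2.69 ± 0.49) and Acadl (long chain, -2.37 ± 0.37) (log2 fold changes with SE), and neighbours in that order differed by no more than the sum of their standard errors. The medium-chain enzyme went from 429.6 and 521 CPM in con to 48.6 and 49.97 in Ht, the very-long-chain enzyme from 295 and 326 CPM in con to 33.1 and 34.9 in Ht and the short-chain enzyme from 221 and 258 CPM in con to 36.3 and 37.6 in Ht. Acadl had the smallest fall of the mitochondrial members called. Acadl stood at 272 and 279 CPM in con, 197 and 136 CPM in Lt, between 72.1 and 189 CPM in the 6 Mt libraries (median 129), and 50.7 and 55.8 CPM in Ht. Its Ht values lay below all of its others. 

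The flavoprotein chain fell with them, Etfdh by 3.37, Etfa by 3.28 and Etfb by 2.65 on the log2 scale. Etfdh went from 374 and 414 CPM in con to 36.8 and 39.4 in Ht, Etfa from 497 and 506 CPM in con to 49.3 and 53.6 in Ht and Etfb from 64.8 and 60.8 CPM in con to 10.3 and 9.67 in Ht. In each the 2 Ht samples were low and close to each other. Hadha and Hadhb, whose products form 1 complex, fell by 2.52 and 2.76, and Hadh, the short-chain dehydrogenase of the cycle, by 2.64. Hadha went from 468 and 502 CPM in con to 81.9 and 87.2 in Ht, Hadhb from 236 and 221 CPM in con to 30.5 and 37.1 in Ht and Hadh from 294 and 426 CPM in con to 58.9 and 56.4 in Ht. The auxiliary enzymes Eci1 and Decr1, which prepare unsaturated chains, fell by 2.95 and 2.91, Eci1 from 144 and 201 CPM in con to 21.3 and 23.2 in Ht and Decr1 from 199.6 and 272 CPM in con to 30.8 and 31.9 in Ht. All of these changes were called (adjusted p from 0.000393 to 0.00173).

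Of the members of both compartments Acad11, an acyl-CoA dehydrogenase, fell furthest at -4.54 ± 0.60 (adjusted p = 0.000299), followed by Ech1 at -2.66 ± 0.46 and Eci2, an isomerase, at -2.53 ± 0.34, both called lower. Acad11 went from 375 and 416 CPM in con to 14.6 and 19.5 in Ht, Ech1 from 315 and 409.9 CPM in con to 57.8 and 56.7 in Ht and Eci2 from 221 and 242 CPM in con to 38.9 and 41.0 in Ht.

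Acot2 and Crat were the exceptions of the set. Acot2 stood at 5.13 and 4.71 CPM in con, 3.37 and 3.49 CPM in Lt, between 3.44 and 9.50 CPM in the 6 Mt libraries (median 7.23), and 6.99 and 7.79 CPM in Ht. The Ht values lay above those of con and within the range of Mt, with a log2 fold change of 0.59 ± 0.39 (adjusted p = 0.214), and with total counts in place of TMM it was called higher at 1.77. A share of 24.5% of the 50-base windows of the Acot2 transcript also stood in that of Acot1, its neighbour and near copy, which fell by 5.39 ± 0.85 (adjusted p = 0.000624), so reads could be split between them. Crat stood at 92.2 and 54.5 CPM in con, 63.2 and 35.4 CPM in Lt, between 37.1 and 60.1 CPM in the 6 Mt libraries (median 42.4), and 38.0 and 40.1 CPM in Ht. The con libraries differed from each other by more than con replicate 2 differed from Ht, and the log2 fold change was -0.91 ± 0.34 (adjusted p = 0.041), under the fold threshold.

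The promoters were set beside these changes as a description chosen after the values were seen. The 17 members with GGGCGG in the upstream window had a median log2 fold change from con to Ht of -2.69 and the 13 without it -3.91. The 3 steepest of the 30 (Fabp1, Acaa1b and Phyh) were without it and the next 2 (Acsl1 and Ehhadh) had it, and of the 6 with the smallest fall or none, Acot2 was without it and Eci2, Cpt1a, Hadha, Acadl and Acaa1a had it. For CCAAT the medians with and without were -3.33 and -3.23.

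The peroxisomal thiolases, Acaa1a (chr9:119339676-119350299, plus strand) and Acaa1b (chr9:119148023-119157093, minus strand), are near copies on chromosome 9 (GRCm38) that parted along the series. Their coding sequences have the same length of 1272 bases and differ at 44 of them. The 60 bases with the most differences, coding bases 259 to 318 counted from the start codon, are shown to let the pair be told apart, with capitals at the 11 bases that differ.
Acaa1a: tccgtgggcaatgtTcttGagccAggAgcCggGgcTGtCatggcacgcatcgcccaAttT
Acaa1b: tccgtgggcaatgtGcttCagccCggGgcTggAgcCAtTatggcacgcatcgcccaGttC
Of the 50-base windows of the Acaa1b transcript 35.5% also stood in that of Acaa1a, and of the 150-base windows 13.3%, so part of the reads could not be placed with certainty and the levels of both carry that limit.

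In con Acaa1b had 9704 and 18986 counts against 2259 and 3386 of Acaa1a, so that it took 81.1% and 84.9% of the counts of the pair. In Lt it took 80.7% and 73.9%, and in the Mt libraries between 54.7% (Mt1 replicate 1) and 85.1% (Mt3 replicate 1). In Ht the order was turned, with 666 and 603 counts of Acaa1b against 2626 and 1462 of Acaa1a, and a share of 20.2% and 29.2%. In sorted cells 5 to 16 counts of Acaa1b stood against 3175 to 4322 of Acaa1a, a share of 0.116% to 0.456%. The ranges of con, Ht and sorted cells did not overlap.

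**Figure D3:**
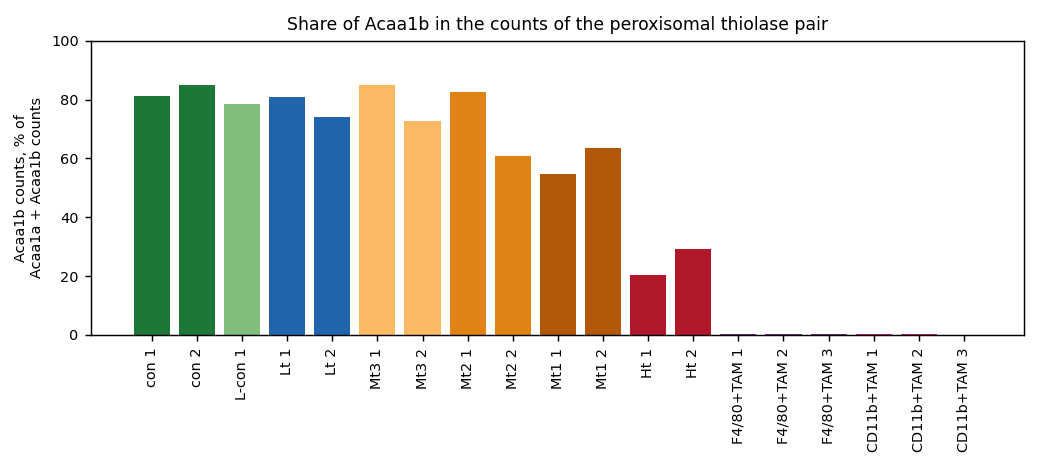
Counts of Acaa1b as a percentage of the counts of Acaa1a and Acaa1b together, 1 bar per library, coloured by group. The bars fall from above 80% in con to below 30% in Ht and are too short to be seen in the sorted cells.

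The share of each compartment in the summed FPKM of the set depended on Fabp1, which alone held 37.0% and 49.6% of it in con and 11.8% and 10.1% in Ht. Over all 34 members the peroxisomal share was 30.8% and 26.0% in con, 22.5% and 25.3% in Ht and 25.1% to 26.9% in the sorted cells, where it overlapped con, and the mitochondrial share was 27.7% and 21.1% in con and 55.6% and 55.0% in Ht. With Fabp1 left out, the peroxisomal members held 48.9% and 51.4% of the summed FPKM of the set in con and 25.5% and 28.2% in Ht, while the mitochondrial members went from 44.0% and 41.9% to 63.0% and 61.2%. In the sorted cells the peroxisomal share was 25.2% to 27.0% and the mitochondrial share 59.7% to 61.0%. On that basis both Ht samples lay near the sorted cells and outside the range of con.

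Relative to Alb, the falls became gains for most members. This comparison asked whether a member kept pace with a transcript made by hepatocytes, and the fit took the Alb count of each library as its size, so that a log2 fold change is that of the ratio of member to Alb. From con to Ht no member was called lower and 23 of 34 were called higher, against 91% of the 17186 genes called higher and 0.186% lower. The share of members called higher was below that of all genes, with a median of 2.66 against 5.99. The count rested on single libraries and was lower with any con or Ht sample left out, which leaves 1 sample in that group. The median of the members was 2.50 without con replicate 1 and 2.91 without con replicate 2, against 5.90 and 6.15 for all genes. It was 2.37 without Ht replicate 1 and 2.91 without Ht replicate 2, against 5.60 and 6.27. From Mt to Ht 25 members were called higher and none lower, against 90.8% and 0.151% of all genes.

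The distance between the compartments is that of the TMM values restated, since division by Alb moves all members of a library alike, but the calls fell differently on them. Of all genes 91% were called higher relative to Alb, with a median of 5.99. Of the mitochondrial members 16 of 18 were, a share close to that of all genes, with a median of 3.05. Of the peroxisomal members 4 of 10 were, with a median of 1.62. The 4 were Acaa1a at 3.62 ± 1.01 (adjusted p = 0.00132), Hsd17b4 at 3.19 ± 0.97 (adjusted p = 0.00286), Decr2 at 2.33 ± 0.93 (adjusted p = 0.0195) and Abcd3 at 1.97 ± 0.92 (adjusted p = 0.0437). The steepest members of the set moved with Alb or close to it: Phyh was at 0.11 ± 0.88, Acaa1b at -0.39 ± 0.93, Acsl1 at 0.55 ± 0.89 and Fabp1 at -0.64 ± 0.89, none of them called (adjusted p from 0.495 to 0.907).

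The choice of reference moved all members alike, and the calls with it. With Apoa1, an apolipoprotein of hepatocytes, in place of Alb, Phyh went from 0.11 to -1.28, Acaa1b from -0.39 to -1.80 and Fabp1 from -0.64 to -2.05, these 3 were called lower, and 16 members were called higher, with 275 of the 17186 genes lower and 15048 higher. With the mean of 13 hepatocyte markers as reference, 1 member (Fabp1, at -1.68) was called lower and 21 higher, with 185 of 17174 genes lower and 15321 higher. With Ttr (transthyretin) 25 were called higher and none lower, with 15790 of the 17186 genes higher and 52 lower. A change of reference shifts every member by the same amount within a library, so the distance between the compartments is fixed by the TMM values whatever the reference.

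Per library, the change of the member-to-Alb ratio from con was taken as the median over a class. In Lt the mitochondrial class was at -0.13 and 0.32 and the peroxisomal class at -0.27 and 0.19. Over the 6 Mt libraries the mitochondrial class averaged 0.41 ± 0.54 (SD, n = 6) and the peroxisomal class 0.23 ± 0.58, with the lowest values, -0.31 and -0.85, in Mt1 replicate 1. In Ht the mitochondrial class stood at 3.28 and 2.79 and the peroxisomal class at 1.73 and 1.54, above all other tissue libraries. Taken over all 6 libraries, the Mt values overlapped con and Lt in both classes, and from con to Lt no member was called relative to Alb (4.48% of all genes higher and 0.00582% lower, with 0 members at an unadjusted p under 0.05 by edgeR and none called by DESeq2).

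**Figure D4:**
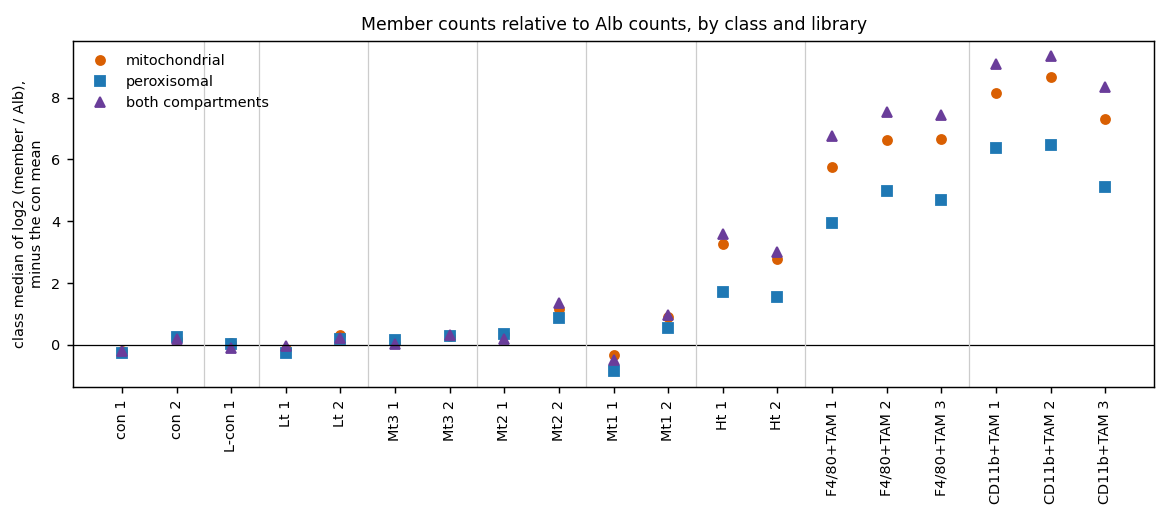
Class median of the log2 ratio of member counts to Alb counts, minus the mean of con, for each library (mitochondrial circles, peroxisomal squares, both compartments triangles), with groups divided by vertical lines. The peroxisomal class lies close to the mitochondrial one in con, L-con, Lt and Mt3, is lower in 3 of the 4 Mt2 and Mt1 libraries by 0.31 to 0.54, and parts furthest among the tissues in Ht, where the mitochondrial class is at 3.28 and 2.79 and the peroxisomal class at 1.73 and 1.54, and in the sorted cells they stand further above con.

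Other genes of the pathway moved alongside. Of 65 further genes tested, 49 were called lower and 5 higher from con to Ht, against 24.1% and 25.8% of all genes, with a median of -2.79 against 0.09. Acat1, the mitochondrial acetoacetyl-CoA thiolase, was called lower at -2.93 ± 0.54 (adjusted p = 0.00139) and Bdh2, a cytosolic dehydrogenase, at -4.87 ± 0.75 (adjusted p = 0.000569).

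Oxct1, the enzyme by which other tissues use ketone bodies, rose. It stood at 13.8 and 5.13 CPM in con, 27.9 and 46.1 in Lt, 31.5 to 86.3 in Mt and 98.6 and 99.97 in Ht. The con and Ht values lay apart, with a log2 fold change of 3.39 ± 0.49 (adjusted p = 0.000416), and it was already called higher from con to Lt at 1.97 ± 0.47 (adjusted p = 0.0216).

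Of 20 further peroxisomal genes 16 were called lower and none higher, with Nudt7, a peroxisomal coenzyme A hydrolase, at -6.79 ± 1.00 (adjusted p = 0.000467) furthest. Of 14 further mitochondrial genes tested 11 fell and 2 rose, Acot9, a thioesterase, at 3.44 ± 0.45 (adjusted p = 0.000292) and Cpt1c, the brain form of the transferase, at 3.33 ± 0.66 (adjusted p = 0.00192). Of 13 genes of uptake and activation 8 fell, led by Slc27a5, which activates bile acids and very long chains, at -6.63 ± 0.82 (adjusted p = 0.000234), and 2 rose, Acsl6 at 6.29 ± 0.60 (adjusted p = 0.000102) and Slc27a1 at 1.32 ± 0.23 (adjusted p = 0.00113).

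Among 13 regulators and their targets 10 were called lower and none higher. Ppara stood at 145 and 207 CPM in con, 18.4 to 152 in Mt and 3.21 and 4.59 in Ht, a log2 fold change of -5.51 ± 0.77 (adjusted p = 0.000383). Its partner Rxra was at -3.00 ± 0.54 (adjusted p = 0.00116), the coactivator Ppargc1a at -4.51 ± 1.04 (adjusted p = 0.00448), and Creb3l3, a liver factor of fasting, at -4.88 ± 0.65 (adjusted p = 0.000309). Cyp4a10, a fatty acid hydroxylase known as a Ppara target, fell furthest at -8.39 ± 1.39 (adjusted p = 0.000782). Pparg was called lower at -1.38 ± 0.34 (adjusted p = 0.00614), while Ppard was at 0.40 ± 0.45 (adjusted p = 0.458), Fgf21 at 1.28 ± 0.92 (adjusted p = 0.246) and Pdk4 at -1.86 ± 0.74 (adjusted p = 0.0511).

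The sorted cells gave the levels of the members in tumor-associated macrophages (TAM). Their macrophage marker sum was 22742 to 24642 CPM in F4/80+TAM and 20993 to 33221 in the CD11b+ cells, and the neutrophil marker sum 189 to 513 and 1344 to 3729.5. The hepatocyte sum was 221 to 393 and 85.6 to 251 CPM, with none of the 13 markers at 0, so that hepatocyte transcripts were present at a low level. On the scale of the joint fit of tissue and sorted cells, Mt2 was taken as the reference. Of the 34 members 27 were called lower and none higher in F4/80+TAM, against 25.2% of 18407 genes lower and 17.2% higher, and 26 lower and none higher in CD11b+TAM, against 26.3% and 17.6%. The table, the isolation of the cells and the sex of the animals differed together with the groups, and cannot be told apart from them.

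Again the peroxisomal class lay lower, with 9 of 10 members called and a median of -3.67 in F4/80+TAM and -3.61 in CD11b+TAM. Putting Acox2 at its bound left both medians as they were. The mitochondrial class had medians of -2.02 and -1.69, with 14 and 13 of 18 called lower, and all genes had a median of -0.12 and -0.08. The 2 Mt2 libraries were far apart in most members. Without Mt2 replicate 1, the library with more Alb, 20 and 19 members were called lower and the median of the members went from -2.27 and -2.02 to -1.43 and -1.13, with 4115 and 4277 of 18423 genes lower. Without Mt2 replicate 2, 31 members were called lower in each population, with 4300 and 4566 of 18332 genes lower. The class medians without Mt2 replicate 1 were -1.04 and -0.69 (mitochondrial) and -2.42 and -2.33 (peroxisomal).

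Acox2 was nearly absent. It stood at 154 and 44.1 CPM in Mt2 and had 0 to 1 counts in every sorted library, which made it at least 655-fold lower in F4/80+TAM and at least 570.1-fold lower in CD11b+TAM, set against the mean of Mt2, with 3 counts per library as the floor. Against Mt2 replicate 2 alone the bounds were 291-fold and 253-fold. Fabp1 stood at 1256 and 337 CPM in Mt2, 0.909, 0.688 and 0.542 in F4/80+TAM and 0.475, 0.465 and 1.16 in CD11b+TAM, a log2 fold change of -10.11 ± 0.71 (adjusted p = 1.3e-07) and -10.18 ± 0.72 (adjusted p = 8.8e-08). Acaa1b stood at 743 and 115 CPM in Mt2, 0.556, 0.639 and 0.444 in F4/80+TAM and 0.285, 0.677 and 0.290 in CD11b+TAM, with log2 fold changes of -9.60 ± 0.84 (adjusted p = 5.0e-07) and -9.95 ± 0.85 (adjusted p = 3.4e-07). Relative to Alb, Fabp1 was below both Mt2 libraries in all 6 sorted libraries, while Acaa1b in CD11b+TAM replicate 2 lay above both of them, on 5 to 16 counts per library. The mean ratio of Acaa1b to Alb was 0.370 times that of Mt2 in F4/80+TAM and 0.728 times in CD11b+TAM, and that of Fabp1 0.213 and 0.528 times. The Alb counts were 2282 to 4156 in F4/80+TAM and 771 to 1610 in CD11b+TAM, and the part of hepatocyte RNA in the low counts of Fabp1 and Acaa1b was not tested.

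Acaa1a was the opposite case. It stood at 156 and 74.0 CPM in Mt2, 161, 164 and 157 in F4/80+TAM and 156, 148 and 251 in CD11b+TAM, so that no sorted library lay below the lower Mt2 library. Its log2 fold changes were 0.48 ± 0.31 (adjusted p = 0.207) and 0.68 ± 0.31 (adjusted p = 0.0766), not called, and without Mt2 replicate 1 it was called higher at 1.12 and 1.32. Relative to Alb its ratio was 286 and 868 times that of Mt2. That ratio rose in every member but Acaa1b, Acox2 and Fabp1, and for Crat it was 265 and 588 times. Alb itself stood at 12253 to 57693 CPM in Mt2, 113 to 210 in F4/80+TAM and 32.6 to 93.4 in CD11b+TAM. Hsd17b4 was the next closest to Mt2 of the peroxisomal members, 118, 107 and 102 CPM in F4/80+TAM against 402 and 165 in Mt2, and was called lower at -1.38 ± 0.32 (adjusted p = 0.00209).

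Of the mitochondrial members Bdh1 lay furthest below Mt2, 0.707, 1.33 and 1.04 CPM in F4/80+TAM and 0.664, 0.804 and 0.812 in CD11b+TAM against 167 and 43.2 in Mt2, with log2 fold changes of -6.67 ± 0.65 (adjusted p = 1.1e-06) and -7.10 ± 0.66 (adjusted p = 7.0e-07). Cpt1a lay closer: it stood at 399 and 169.9 CPM in Mt2, 179, 171 and 175 in F4/80+TAM and 168, 186 and 74.8 in CD11b+TAM, with log2 fold changes of -0.70 ± 0.38 (adjusted p = 0.129) and -0.99 ± 0.38 (adjusted p = 0.0361), not called. Hadha, Acadl and Acot2 were not called in either population. Crat stood at 56.7 and 43.7 CPM in Mt2, 79.5, 60.1 and 68.2 in F4/80+TAM and 61.8, 68.2 and 42.2 in CD11b+TAM and was not called (adjusted p = 0.203 and 0.596).

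**Figure D5:**
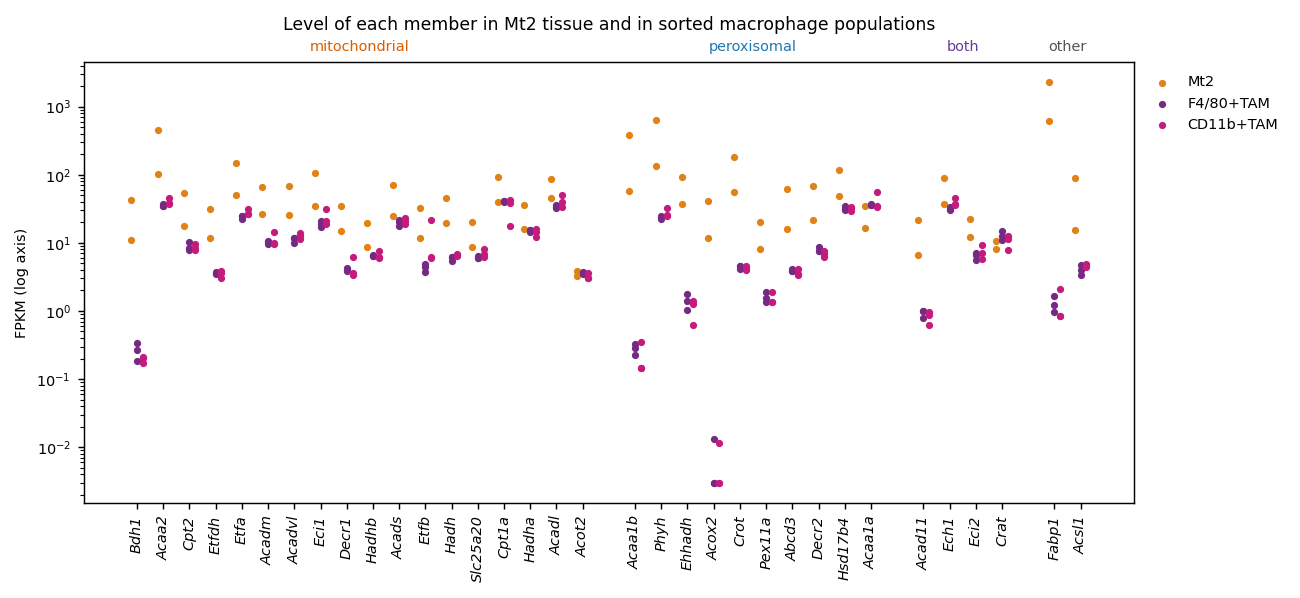
Level of each member (FPKM, log axis) in the 2 Mt2 libraries and in the 3 libraries each of F4/80+TAM and CD11b+TAM, on the scale of the joint fit, with values of 0 drawn at 0.003. Acox2, Acaa1b, Fabp1 and Bdh1 lie far below Mt2 in both populations, while the Acaa1a points of both populations lie above the lower Mt2 library.

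Across the members the changes in both settings ran alike. Over 33 members without Acox2, Pearson's r between the log2 fold changes from con to Ht and from Mt2 to F4/80+TAM was 0.86 and Spearman's rho 0.92, and for CD11b+TAM 0.84 and 0.94. Over all 17182 genes tested in both, the values were 0.39 and 0.29 for F4/80+TAM. These are correlations across genes, which are not independent replicates, and each comparison sets libraries with a high hepatocyte marker sum against libraries with a low one.

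Ht and the sorted cells could be set side by side on the same scale. In 13 of the 34 members both Ht samples lay above all 6 sorted libraries, against 33% of all genes, in 8 they lay below, against 29.9%, and in 13 they overlapped. Of the 10 peroxisomal members 7 lay above, Acaa1a alone lay below, and of the 18 mitochondrial members 4 lay above, 5 below and 9 overlapped.

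Between F4/80+TAM and CD11b+TAM no member passed the test. None of 33 members tested was called by edgeR, with Acox2 removed by the filter, against 0.0771% of 14263 genes, and none by DESeq2, while 2 members had an unadjusted p under 0.05. They were Etfb at -1.44 ± 0.52 (log2 fold change from CD11b+TAM to F4/80+TAM, SE, adjusted p = 0.425) and Ech1 at -0.36 ± 0.15 (adjusted p = 0.47). Etfb stood at 5.60, 4.71 and 6.14 CPM in F4/80+TAM and 7.83, 8.13 and 29.1 in CD11b+TAM. CD11b+TAM replicate 3 stood apart, with the highest level of the 6 libraries in 17 of the 33 members and the lowest in 8, Cpt1a among them, and it also had the most Alb of its group. Without it, no member was called.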

How the data were processed

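Bulk RNA-Seq libraries were prepared with the NEBNext Ultra RNA kit and aligned to GRCm38/mm10 with HISAT2 2.0.5, and per the submitters' processing notes the authors counted reads per gene with featureCounts 1.5.0-p3. The deposited values are these counts, 1 table for tissue and 1 for sorted cells, with the gene name and length. Use of strand in counting is not given in the sources used here. From the counts, edgeR 4.0.16 (R 4.3.3) fitted quasi-likelihood models with TMM factors and filterByExpr over all tissue groups (L-con as a group of 1 in no test), over the sorted cells, and over both tables (joint), with p-values adjusted by Benjamini-Hochberg over all genes. Mt was the mean of Mt1, Mt2 and Mt3. FPKM used the deposited gene length. For ratios to Alb a pseudocount of 0.5 was added to both counts. All members were named, with fuller values for the 3 highest of a class in con, the 2 at each end of its changes and those called differently from their class, and for others where they share a step of the pathway. The members, lists and tests were chosen with earlier results of these data known. The tissue samples of a group came from 2 livers per the study's methods. For the sorted cells nothing states separate animals, so p-values there measure only the spread between these samples. The fits were tested on simulated data. Alternatives included DESeq2 1.42.0, other filters, scalings and references, and leaving out each sample. Some genes of the wider pathway are not reported here.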

Additional observations from a re-analysis of the deposited data

How the results depend on the processing

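Over the settings tried, 175 alternative values lay within 1.5 times the reported count or within 1 SD of the reported class value, and 29 did not. Members called lower from con to Lt were 0, but 3 with no filter and 2 with only the groups compared. From Lt to Mt they were 0, but 1 with DESeq2 and 1 with no filter, and 0 to 8 with 1 sample left out (8 without Mt2 replicate 1). From Mt to Ht they were 31, but 20 with total counts, and 0 to 32 with 1 sample left out (0 without either Ht sample and 22 without Mt3 replicate 1). From con to Ht they were 32 to 33 throughout. Relative to Alb, members called higher from con to Ht were 23, and 8 to 21 with 1 sample left out, and members called lower were 0, but 3 with Apoa1 and 1 with the hepatocyte list as reference. Members called higher from Mt2 to F4/80+TAM or to CD11b+TAM ran from 0 to 1 with 1 sample left out, and members called lower from 20 to 31 and from 19 to 31. The mitochondrial minus peroxisomal median of 1.40 became 1.19 with members of both compartments counted as peroxisomal, and 1.25 to 1.55 with 1 sample left out. The mitochondrial log2 ratio to Alb in Lt became -0.43 with Apoa1, -0.50 with Ttr and -0.59 with the hepatocyte list, in Mt -0.15 with Apoa1 and -0.24 with the list, and in Ht 1.66 and 2.01. The peroxisomal ratio in Lt became -0.57 with Apoa1, -0.63 with Ttr and -0.73 with the list, in Mt -0.42 with the list, and in Ht 0.26 with Apoa1 and 0.61 with the list. Phyh relative to the reference turned from 0.11 to -1.28 with Apoa1. The cause of these shifts was not tested. Of all genes, 44 were called lower and 2133 higher from con to Lt, against 166 and 2365 with DESeq2, 377 and 2769 with no filter and 303 and 1767 with only the groups compared. Between the sorted populations 10 and 1 became 167 and 133 with DESeq2 and 152 and 90 with no filter. Samples with the same replicate number did not deviate together for con and Lt (correlation of deviations -0.15), con and Ht (-0.10) or Mt and Ht (-0.39). For Lt and Mt they did (0.58). From Lt to Mt a replicate block took the members at an unadjusted p under 0.05 by edgeR from 4 to 12, and all genes from 3282 to 4186. A replicate block gave 0 members lower from con to Lt, 0 from Lt to Mt, 32 from Mt to Ht, 32 from con to Ht, 27 from Mt2 to F4/80+TAM, 27 from Mt2 to CD11b+TAM, 0 between the sorted populations, and 25 higher relative to Alb. With the numbers of 1 group exchanged, a pairing chosen after seeing the data, the block gave 0, 0, 32 and 32 for the first 4.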
